A study of Homo sapiens with 12 samples.

Results

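FOXA1, GATA3, SPDEF, ELF3, EHF, GRHL2, TBX3 and TRPS1 are transcription factors that set or maintain the luminal epithelial state of the mammary gland. These 8 genes were taken by name, without a threshold on their values, from a table of 55882 gene symbols. All 8 were in the table and among the 14799 genes with enough counts to be tested. The table holds RNA sequencing of T47D, an established line of human luminal breast carcinoma that expresses the estrogen receptor. Control T47D cells, labelled normal or wild type, were compared with T47D cells carrying ectopic HOXB13, a posterior homeobox factor, and each received ethanol vehicle or 2 nM estradiol for 24 h. Crossing genotype (control or HOXB13) with treatment (vehicle or estradiol) gave 4 groups of 3 libraries. All groups had first spent 72 h in phenol-free medium with 10% charcoal-stripped serum, so the vehicle groups are hormone-deprived cells and not cells in full medium. How HOXB13 was introduced, under which promoter, and whether the HOXB13 cells were a clone or a pool is not given in the sources used here, nor is whether the control cells carried an empty vector.

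FOXA1 is a forkhead pioneer factor that opens chromatin for the estrogen receptor, and GATA3 is a zinc finger factor that binds with both and is needed for luminal differentiation. SPDEF, ELF3 and EHF belong to the epithelium-specific branches of the ETS family, while GRHL2, a grainyhead factor, maintains cell junction genes. TBX3, a T-box repressor, and TRPS1, an atypical GATA-type repressor, are both highly active in luminal breast tumours. The estrogen receptor is known to share many binding sites with FOXA1, GATA3 and GRHL2.

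Total counts were 17679824 to 21385996 per library. HOXB13 had 92 to 112 counts in each library labelled with it and 0 to 2 in each control library. The luminal keratin KRT8 was at 6650 to 11700 CPM (counts normalised to library size, with TMM scaling) and KRT18 at 2420 to 4150 CPM, whereas the basal markers KRT5, KRT14, KRT17 and TP63 did not exceed 0.837 CPM in any library. The contractile genes ACTA2 and MYLK, also listed as basal and myoepithelial markers, were at 11.9 to 34.9 and 5.47 to 14.8 CPM. Of the 4 blood markers, 3 stayed under 1 CPM in every library (PTPRC, the leukocyte antigen, at most 0.211 CPM), and the endothelial cadherin CDH5 had no count. Of 7 stromal and fat markers 3 stayed under 1 CPM in every library, while COL1A1, a fibrillar collagen, was at 51.5 to 64.1 CPM. The 4 libraries numbered 2, one from each group, stood apart from the other 8 and did so strongly for GRHL2 and TRPS1, so results that rest on them are given with and without them. The labels do not say whether libraries of a group came from separate cultures. If they did not, the p-values reflect technical spread between libraries alone.

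**Figure D1:**
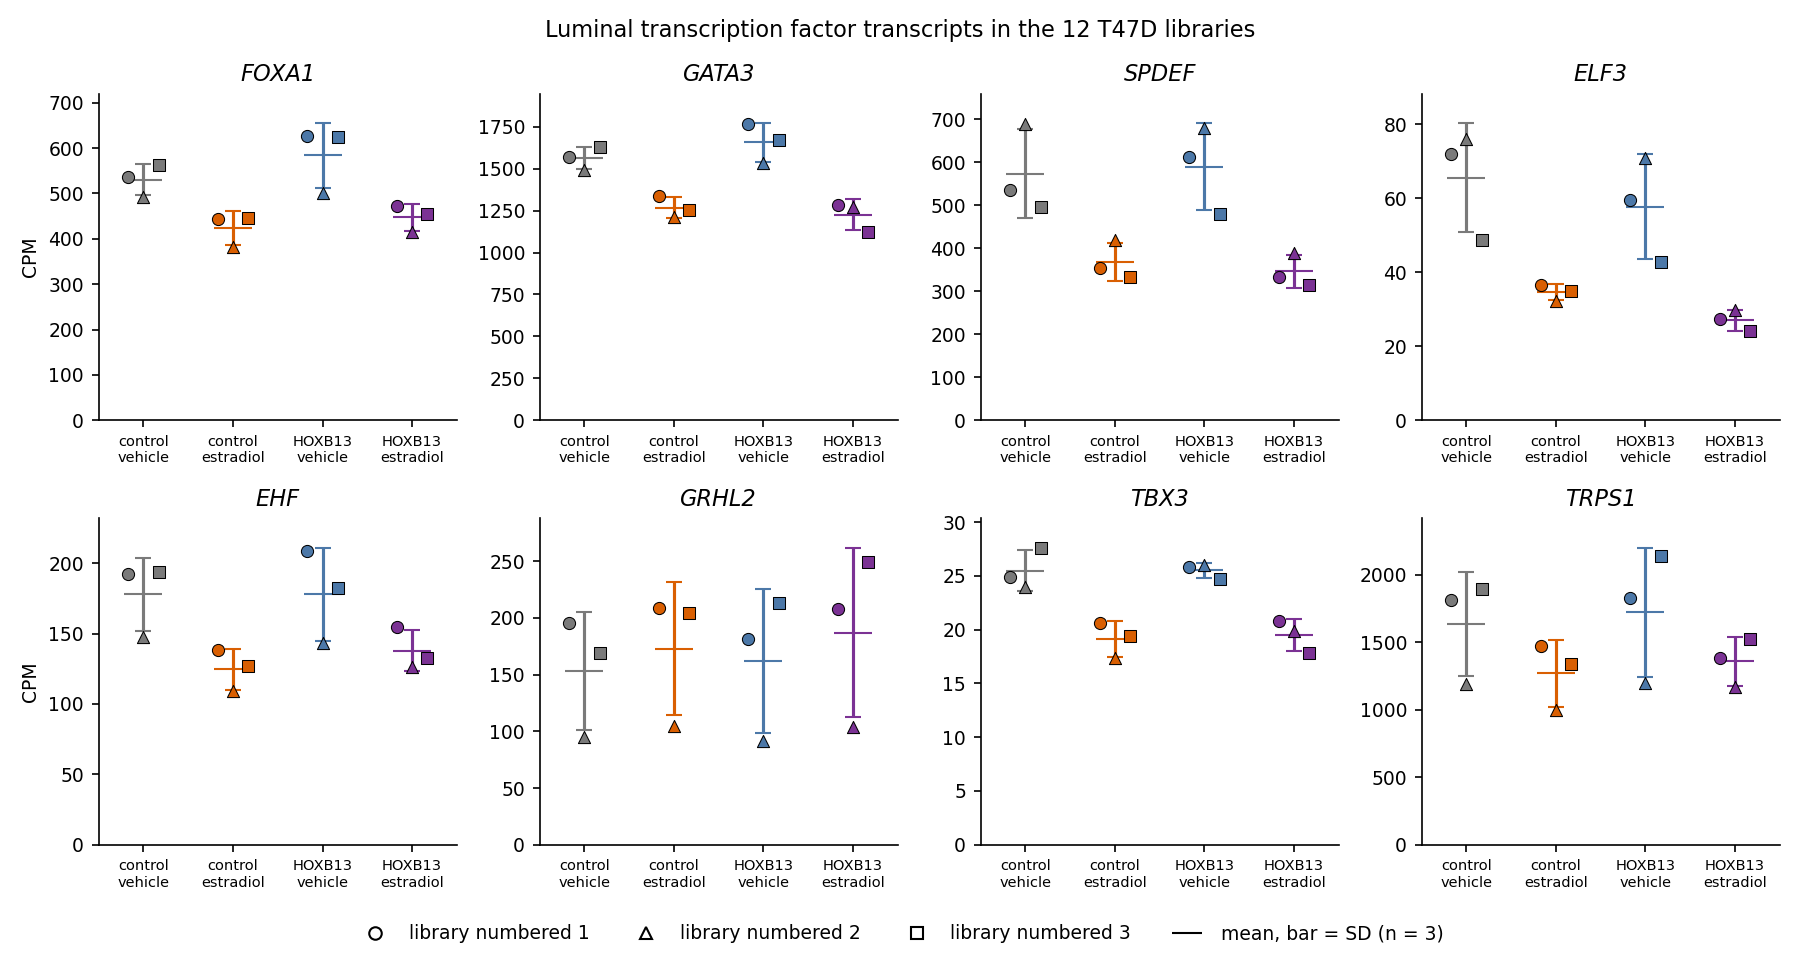
CPM of the 8 genes (linear vertical axes from 0) in the 12 libraries, by group, with circles, triangles and squares for libraries numbered 1, 2 and 3, and the mean with SD bars (n = 3). For FOXA1, GATA3, SPDEF, ELF3 and TBX3, estradiol libraries sit below vehicle libraries of the same cells without overlap, and the triangles of GRHL2 lie near 100 CPM in all groups.

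Most of these genes were lower in estradiol. Averaged over both genotypes, 6 of the 8 fell and 0 rose in edgeR's quasi-likelihood test (Benjamini-Hochberg adjusted p under 0.05), with ELF3, SPDEF, EHF, TBX3, GATA3 and FOXA1 among them and TRPS1 and GRHL2 not passing. Of all tested genes, 28.1% passed in this comparison, 14.6% as higher and 13.5% as lower. With the replicate number as a block, 7 fell, TRPS1 included, and GRHL2 rose, where 45.5% of tested genes passed, 22.7% as higher and 22.8% as lower. The 8 genes had a median log2 fold change of −0.39, against −0.01 over all tested genes. ELF3 was 2.01-fold lower, and the other 5 that passed were 1.28-fold (FOXA1) to 1.63-fold (SPDEF) lower. In bulk RNA, fewer cells of a type and less RNA per cell cannot be told apart.

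By genotype, 4 of 8 fell in control cells (SPDEF, ELF3, EHF and TBX3), where 15.4% of tested genes passed, 8.65% as higher and 6.72% as lower. In HOXB13 cells 5 of 8 fell (FOXA1, GATA3, SPDEF, ELF3 and TBX3), where 13.6% passed, 7.22% as higher and 6.38% as lower. Equally numbered libraries deviated together in both comparisons, and with the replicate number as a block 7 of 8 fell in each, all but GRHL2. The block raised the background as well, to 16.5% lower in control cells and 15% lower in HOXB13 cells. Without the 4 libraries numbered 2, the same count of 7 fell in control cells and 7 in HOXB13 cells, at a background of 24% and 22.1% of genes passing in either direction.

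**Figure D2:**
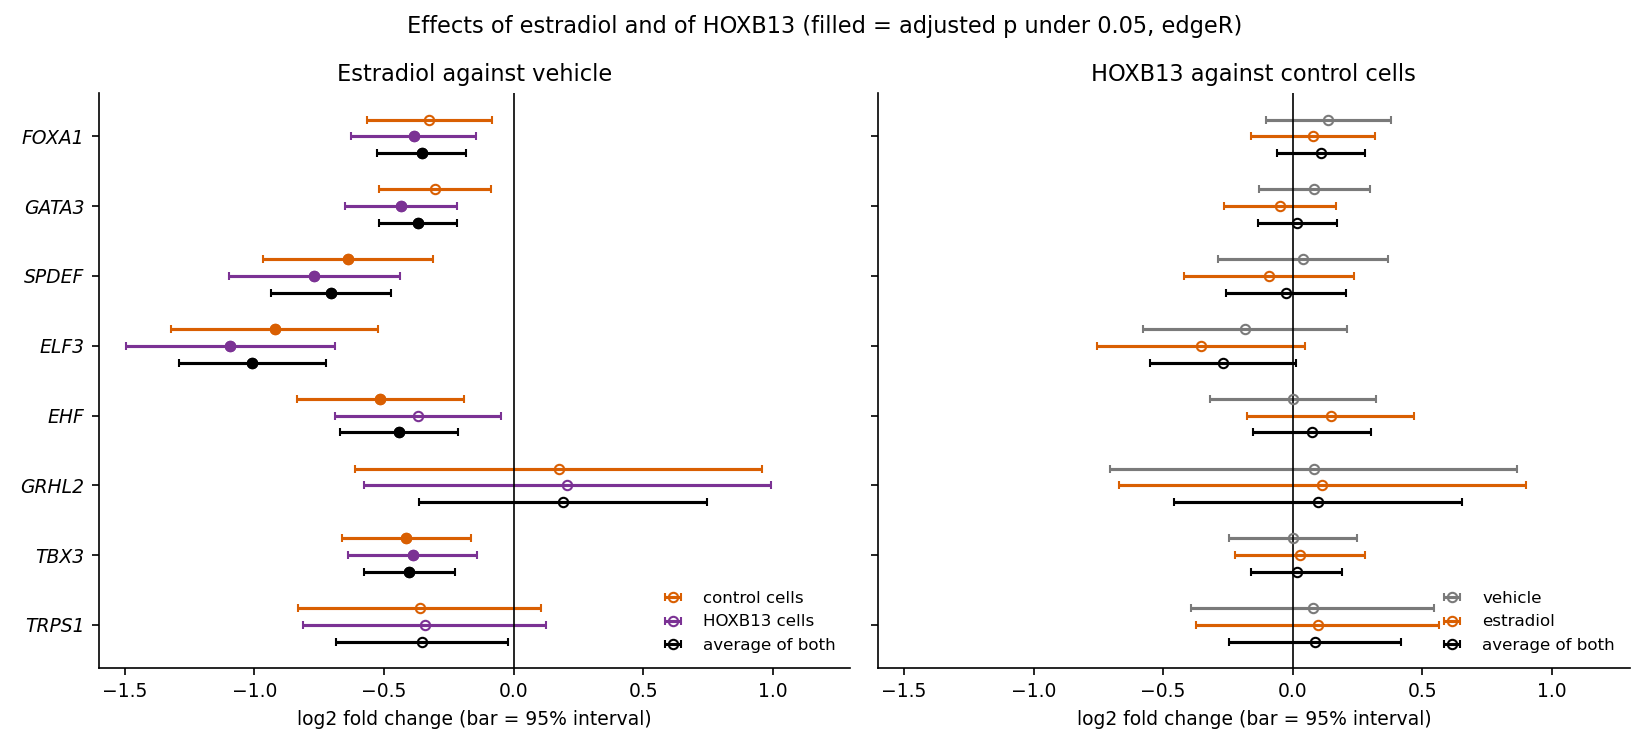
Log2 fold changes (horizontal axes) of the 8 genes for estradiol against vehicle (left) and for HOXB13 against control cells (right), with 95% intervals from the fit over 12 libraries. Filled points have an adjusted p under 0.05: these are 4, 5 and 6 genes in control cells, HOXB13 cells and their average at left, and none at right, where every interval crosses 0.

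ELF3, an ETS factor of epithelial differentiation, had the largest decrease. It was at 71.9, 76.1 and 48.8 CPM in the control vehicle libraries and 36.6, 32.2 and 35.0 CPM in control estradiol. In HOXB13 cells it was at 59.6, 70.9 and 42.7 CPM in vehicle and 27.2, 29.8 and 24.2 CPM in estradiol. In both genotypes every estradiol library lay below every vehicle library, and the vehicle libraries numbered 3 were the lowest of their groups. ELF3 fell by 0.92 ± 0.19 (log2 scale, SE) in control cells (adjusted p = 0.00372 by edgeR) and by 1.09 ± 0.19 in HOXB13 cells (adjusted p = 0.0015). These calls held in each fit that left out libraries, with adjusted p up to 0.0205 and 0.0116.

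SPDEF, an ETS factor of secretory and luminal cells, fell second most. Its levels were 535, 689.7 and 496 CPM in control vehicle and 353, 418 and 334 CPM in control estradiol. In HOXB13 cells they were 611, 678 and 480.0 CPM in vehicle and 333, 389 and 315 CPM in estradiol. The groups did not overlap in either genotype, and library 2 was the highest of each group. The decrease was 0.64 ± 0.15 in control cells (log2 scale, SE; edgeR adjusted p = 0.011) and 0.77 ± 0.15 in HOXB13 cells (0.00397). Without control estradiol library 3 the adjusted p in control cells was 0.063.

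EHF, an ETS factor of the same epithelial subfamily as ELF3, had 192, 148 and 193 CPM in control vehicle and 138, 109 and 127 CPM in control estradiol, without overlap. In HOXB13 cells it had 208, 143 and 182 CPM in vehicle and 154, 127 and 133 CPM in estradiol, where vehicle library 2 lay below estradiol library 1. EHF fell in control cells by 0.51 ± 0.15 (log2 scale, SE; edgeR adjusted p = 0.0322). The call ended without control vehicle library 1 (0.12) or 3 (0.114) and without control estradiol library 2 (0.13) or 3 (0.0893). In HOXB13 cells the log2 fold change was −0.37 ± 0.15 (adjusted p = 0.129), which passed with the replicate block (0.000458), without HOXB13 vehicle library 2 (0.0346) and without all 4 libraries numbered 2 (0.00259). Of the ETS genes, ELF3 and SPDEF fell in both genotypes without the block, and all 3 fell in the average.

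The letters before an annotated start are shown for the ETS genes SPDEF and EHF (RefSeq, GRCh38.p14, 5′ to 3′ on the gene's strand). The 250 bases before the start were searched, and the part outside annotated untranslated exons (GENCODE 29) is printed: chr6:34556334-34556579 on the minus strand for SPDEF and chr11:34632316-34632463 on the plus strand for the downstream one of 2 EHF starts. Capitals mark matches to the letters searched.
SPDEF: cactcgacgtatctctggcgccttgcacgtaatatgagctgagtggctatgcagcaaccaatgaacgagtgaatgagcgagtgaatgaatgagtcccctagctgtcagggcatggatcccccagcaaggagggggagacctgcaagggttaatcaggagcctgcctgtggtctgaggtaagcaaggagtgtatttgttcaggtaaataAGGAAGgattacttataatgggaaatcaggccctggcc
EHF: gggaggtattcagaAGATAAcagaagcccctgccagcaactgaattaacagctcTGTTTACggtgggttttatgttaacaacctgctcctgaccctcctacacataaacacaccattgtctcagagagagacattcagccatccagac

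In SPDEF the capitals are the ETS core AGGAAG, 42 bases before the start, which 28.7% of 35116 RefSeq promoter windows of this length hold on either strand. In EHF they are the GATA letters AGATAA (9.17% of windows) and the forkhead letters TGTTTAC (2.98%), 236 and 196 bases before the start, while its upstream start has neither. The bases just after this downstream EHF start were not found within a single line of the GENCODE 29 transcript sequences of EHF. Those after the upstream EHF start and after the SPDEF start were found in transcripts of their genes. In ELF3 the TATA letters TATAAA (10.7%) lie 34 bases before the start, within an exon of a longer annotated transcript. These letters are not particular to the ETS genes: of 6 GATA3 starts, the first has the ETS core 9 bases before it and the second the TATA letters 205 bases before it. The palindromic estrogen response element (0.0399% of windows), its single arm AGGTCA (12.1%), the grainyhead letters AACCNGTT (1.49%) and the HOXB13 letters CCAATAAA (0.863%) were searched on both strands as well. No match to these 4 was found in the windows of the 11 starts of the 5 genes searched (FOXA1, GATA3, SPDEF, ELF3 and EHF). GRHL2 and TRPS1 were left out of the search, and no window was available for TBX3. The bases just after the start were found in a transcript for ELF3 and for GATA3 start 5, but not for FOXA1 or the other GATA3 starts. Transcript sequences were searched line by line, so bases cut by a line break would be missed. A miss therefore does not show that the bases are absent from the transcripts. Of the bases before the downstream EHF start, 102 lie in an annotated untranslated exon. A match is a description of letters, and its absence says only that they are not in these windows.

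FOXA1, the pioneer factor, was 1.28-fold lower in estradiol over both genotypes. It had 537, 493 and 562 CPM in control vehicle and 445, 381 and 445 CPM in control estradiol. In HOXB13 cells it had 626, 501 and 624 CPM in vehicle and 472, 414 and 455 CPM in estradiol. Neither genotype had overlapping groups, and library 2 was the lowest of each group. Averaged over genotypes FOXA1 fell by 0.35 ± 0.08 (log2 scale, SE; edgeR adjusted p = 0.0038), and the adjusted p stayed at or under 0.0146 when libraries were left out. In control cells alone the log2 fold change of −0.32 did not pass (0.0669), but did with the block (0.000447) and without all libraries numbered 2 (0.0188), without control vehicle library 2 (0.0436) or without HOXB13 vehicle library 2 (0.0367). In HOXB13 cells FOXA1 fell (0.0347), a call lost without any one of HOXB13 vehicle library 1 (0.155) or 3 (0.119), HOXB13 estradiol library 1 (0.0686), 2 (0.118) or 3 (0.0812), or control estradiol library 3 (0.0531).

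GATA3, the luminal zinc finger factor, was 1.29-fold lower over both genotypes. Its levels were 1569.8, 1495 and 1627 CPM in control vehicle and 1339, 1211 and 1254 CPM in control estradiol. In HOXB13 cells they were 1764, 1536 and 1669.6 CPM in vehicle and 1285, 1272 and 1120.2 CPM in estradiol. Each estradiol library was below each vehicle library of its genotype. Averaged over genotypes GATA3 fell by 0.37 ± 0.07 (log2 scale, SE; edgeR adjusted p = 0.00132, at most 0.00587 when libraries were left out). In HOXB13 cells the decrease of 0.43 passed (0.01, but 0.0596 without HOXB13 vehicle library 1). In control cells −0.30 did not pass (0.0574), and passed with the block (0.00277), without control vehicle library 2 (0.0493) and without all libraries numbered 2 (0.0378).

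TBX3, the T-box repressor, had the lowest level of the 8 per kilobase of exon. It had 24.9, 23.9 and 27.6 CPM in control vehicle and 20.7, 17.3 and 19.4 CPM in control estradiol. In HOXB13 cells it had 25.8, 26.0 and 24.7 CPM in vehicle and 20.8, 19.9 and 17.8 CPM in estradiol. No estradiol library reached a vehicle library of its genotype. The decrease averaged over genotypes was 0.40 ± 0.08 (log2 scale, SE; edgeR adjusted p = 0.00206, at most 0.00761 when libraries were left out). TBX3 also fell in control cells (0.0258) and in HOXB13 cells (0.0392). The first call ended without control vehicle library 1 (0.0587) or 3 (0.0984) and without control estradiol library 2 (0.118) or 3 (0.0781). The second was lost without HOXB13 vehicle library 1 (0.119), 2 (0.0882) or 3 (0.0695), HOXB13 estradiol library 1 (0.0669), 2 (0.0791) or 3 (0.15), or control estradiol library 3 (0.0617). Without a filter on low counts neither passed (0.0868 and 0.142).

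TRPS1, a zinc finger repressor, had 1810.4, 1192 and 1894 CPM in control vehicle and 1473, 996 and 1339.6 CPM in control estradiol. In HOXB13 cells it had 1826, 1199.7 and 2137 CPM in vehicle and 1383, 1165 and 1525 CPM in estradiol. The groups overlapped in both genotypes, because vehicle library 2 lay below estradiol libraries 1 and 3. The log2 fold changes of −0.36 ± 0.22 (SE) in control cells and −0.34 ± 0.22 in HOXB13 cells did not pass by edgeR (adjusted p = 0.307 and 0.359), nor did the average of −0.35 ± 0.155 (0.107). TRPS1 fell in both genotypes with the replicate block (0.00252 and 0.00735) and without the libraries numbered 2 (0.00958 and 0.00474). It passed without a filter on low counts too (0.0218 and 0.0429). The average passed without control vehicle library 2 (0.0254) or HOXB13 vehicle library 2 (0.0209).

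GRHL2 differed from the other 7 in direction. It had 195, 95.3 and 169 CPM in control vehicle and 209, 105 and 204 CPM in control estradiol. In HOXB13 cells it had 181, 91.5 and 213 CPM in vehicle and 208, 104 and 249 CPM in estradiol. Library 2 was by far the lowest of each group, and the groups overlapped. The log2 fold change was 0.17 ± 0.37 (SE) in control cells and 0.21 ± 0.37 in HOXB13 cells, with edgeR adjusted p = 0.808 and 0.782, and 0.19 ± 0.26 in the average (0.631). The 95% interval of the average ran from −0.36 to 0.75. With the replicate block GRHL2 rose in the average (adjusted p = 0.0106) but did not pass in control cells (0.123) or HOXB13 cells (0.0609). Without the 4 libraries numbered 2 the average was 0.20 and passed (0.0421). Leaving out single libraries turned the sign in control cells (−0.08 without control vehicle library 2) and in HOXB13 cells (−0.07 without HOXB13 vehicle library 2, −0.05 without HOXB13 estradiol library 3).

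Between libraries of the same number, the direction was uniform for each gene. FOXA1, GATA3, SPDEF, ELF3, EHF, TBX3 and TRPS1 were lower in estradiol in 6 of 6 such pairs, and GRHL2 was higher in 6 of 6, by 0.10 to 0.27 (difference in log2 CPM). Of all tested genes, 20.4% were lower and 20.5% higher in all 6. Pairwise decreases of ELF3 ranged from −0.48 to −1.25, and those of TRPS1 from −0.04 to −0.50, with the smallest in HOXB13 cells numbered 2. Groups did not overlap for 6 of 8 genes in control cells and 5 of 8 in HOXB13 cells, all lower in estradiol, where 14.9% and 14.7% of tested genes had such lower groups.

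**Figure D3:**
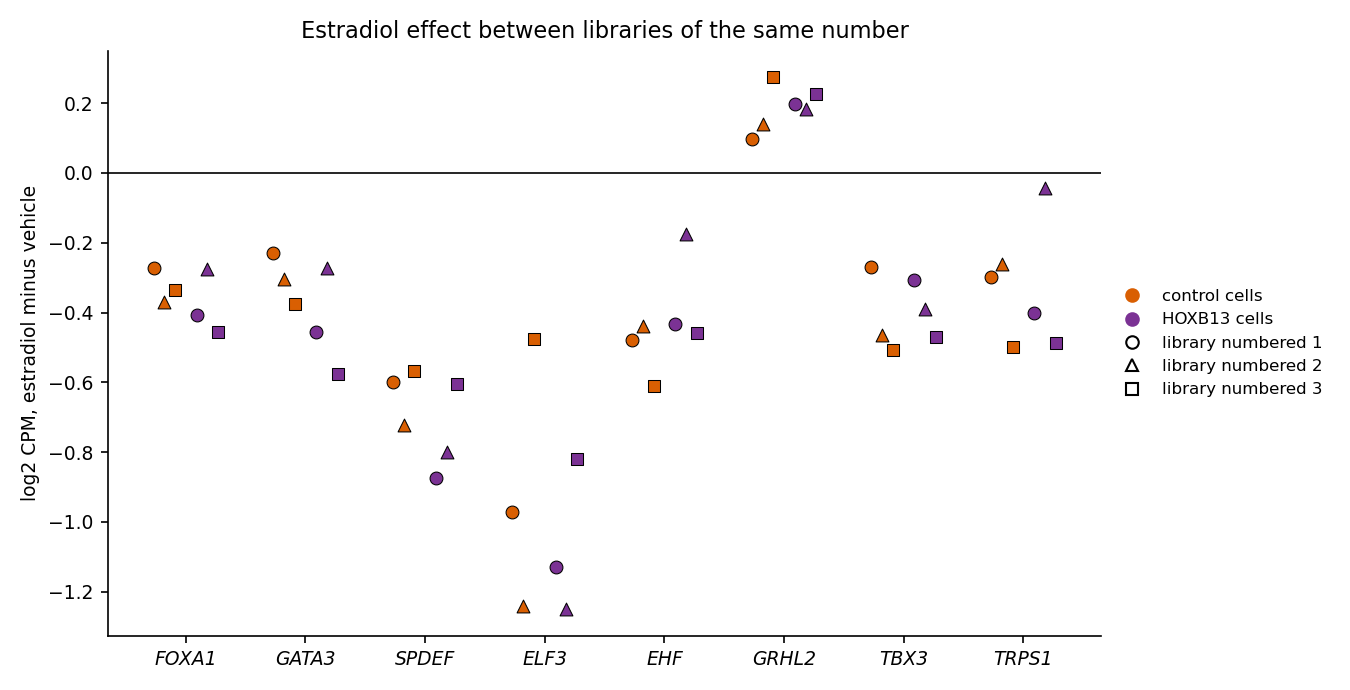
Difference in log2 CPM (vertical axis) between the estradiol and the vehicle library of the same number, for each gene, in control cells (orange) and HOXB13 cells (purple), with 3 pairs each. All 6 differences are below 0 for 7 genes and above 0 for GRHL2.

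The libraries numbered 2 differed from those numbered 1 and 3 most for GRHL2. Averaged over the 4 groups, GRHL2 was 1.03 lower in them on the log2 CPM scale, a ratio of 0.488, and only 0.662% of tested genes were as low or lower. TRPS1 was at a ratio of 0.687, EHF at 0.8 and FOXA1 at 0.862, each lower in all 4 groups. SPDEF was at 1.25, higher in all 4 groups, and ELF3 at 1.17, higher in 3 of them. GATA3 and TBX3 were at 0.954 and 0.958. For 11161 genes, divided into 5 equal bins by the length of their longest transcript in GENCODE 29, the median difference of these libraries went from 0.26 in the bin of shortest transcripts to −0.28 in that of longest. By GC content of that transcript it went from −0.19 in the lowest bin to 0.19 in the highest. SPDEF has a longest transcript of 1895 bases with 64.64% GC, GRHL2 one of 5239 bases with 49.78% GC and TRPS1 one of 9990 bases with 40.14% GC. The part of length and GC in the values of these genes was not tested.

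**Figure D4:**
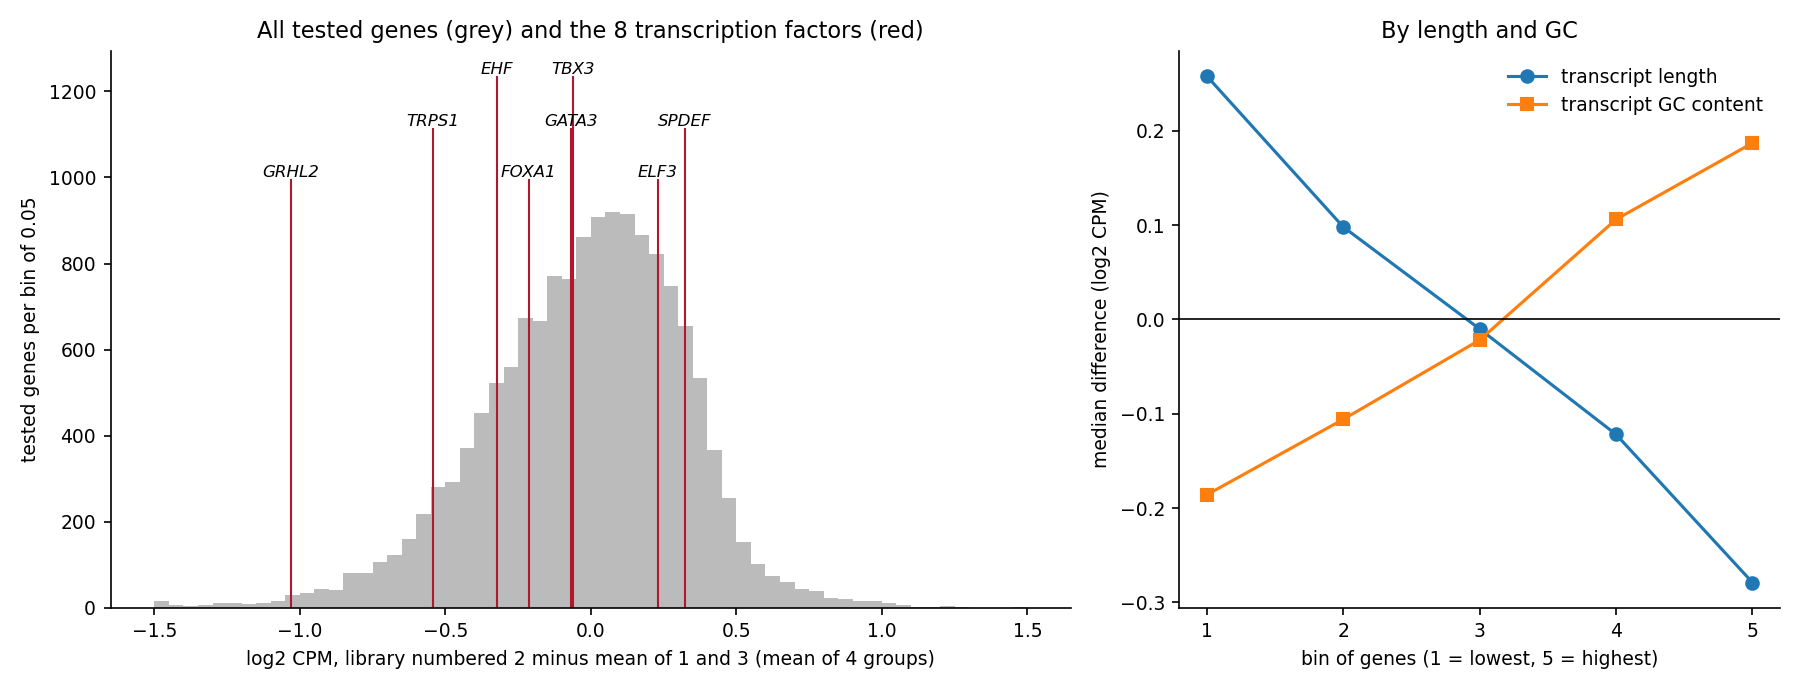
Left, distribution over all tested genes (grey, linear count axis) of the log2 CPM of the library numbered 2 minus the mean of libraries 1 and 3, averaged over the 4 groups, with values beyond 1.5 drawn in the end bins and the 8 genes as red lines. Right, medians of this difference in 5 equal bins of genes by longest transcript length and by GC content: they run from 0.26 to −0.28 with length and from −0.19 to 0.19 with GC, and GRHL2 lies at −1.03 at left.

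HOXB13 did not change any of the 8 genes past the threshold. The count was 0 of 8 in vehicle, where 0.0203% of tested genes passed, 0 of 8 in estradiol (0.0135%) and 0 of 8 averaged over treatments (0.149%), by edgeR. DESeq2 also passed 0 of 8 in each, where 0.128%, 0.135% and 0.703% of tested genes passed. In these 3 comparisons 0 of the 8 had an unadjusted p under 0.05 by edgeR, against 3.78%, 3.3% and 6.05% of tested genes. With the replicate block 0, 2 and 2 had one, against 9.6%, 10.3% and 14.5% of tested genes, and 0 passed after adjustment (background 0.405%, 0.392% and 2.61%). ELF3 had the largest estimate: in estradiol its HOXB13 libraries, at 24.2 to 29.8 CPM, lay below the control libraries, at 32.2 to 36.6 CPM, and it was lower in 6 of 6 pairs of equally numbered libraries. Its log2 fold change was −0.18 ± 0.18 (SE) in vehicle, −0.35 ± 0.19 in estradiol and −0.27 ± 0.13 averaged (edgeR adjusted p = 0.861; 95% interval −0.55 to 0.01). ELF3 in estradiol was the single case of the 8 genes in either treatment whose genotypes did not overlap, where 5.37% of tested genes were lower and 4.51% higher without overlap in HOXB13 cells in estradiol, and 7.14% did not overlap in vehicle. Pairs of equally numbered libraries were all lower for 4.78% of tested genes. The summed level of 6 basal and myoepithelial markers, nearly all from ACTA2 and MYLK, was 24.1 to 31.6 CPM in control libraries and 33.3 to 50.1 CPM in HOXB13 libraries, and its part in these values was not tested.

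The averaged HOXB13 effect had intervals of different widths. FOXA1 had a log2 fold change of 0.11 (95% interval −0.06 to 0.28) and was higher in 6 of 6 pairs, GATA3 0.02 (−0.14 to 0.17) and TBX3 0.01 (−0.16 to 0.19). SPDEF had −0.03 (−0.26 to 0.21) and EHF 0.07 (−0.15 to 0.30). For TRPS1 (0.09, −0.24 to 0.42) and GRHL2 (0.10, −0.46 to 0.65) the intervals were wider. As folds, the upper bounds were 1.21 for FOXA1, 1.12 for GATA3, 1.14 for TBX3 and 1.57 for GRHL2. Of tested genes, 4.4% were higher in HOXB13 cells in all 6 pairs, as FOXA1 was.

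The estradiol responses of the 2 genotypes were also compared directly. The difference in log2 fold change passed for 0 of 8 genes and for 0% of tested genes by edgeR, with 0 of 8 at an unadjusted p under 0.05 (1.48% of tested genes) and 0 of 8 by DESeq2 (0% of tested genes). Estimates ran from −0.17 for ELF3 (95% interval −0.73 to 0.39) to 0.15 for EHF (−0.31 to 0.60). The genes called in one genotype and not in the other, FOXA1, GATA3 and EHF, are therefore not shown to respond differently. Intervals of this width do not show equal responses either.

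Levels of different genes were compared per kilobase of exon (union of exons in GENCODE 29, an annotation other than the one used for counting). GATA3 was highest in all 4 groups, at 455 ± 19.3 CPM per kb in control vehicle (SD, n = 3), followed by SPDEF at 300 ± 53.6. TRPS1 (147 ± 34.6) and FOXA1 (133 ± 8.74) came next and overlapped in every group. EHF was at 40.5 ± 5.92 and GRHL2 at 25.3 ± 8.56 CPM per kb, without overlap in control vehicle but with overlap in the other 3 groups, and in control estradiol their means changed places (28.4 and 28.5). ELF3 (9.12 ± 2.05) and TBX3 (4.29 ± 0.319) were lowest, and they overlapped only in HOXB13 cells in estradiol, at 3.77 ± 0.393 and 3.28 ± 0.257 CPM per kb. The means of the first 4 kept their order in all groups with this length. FOXA1 and TRPS1 have 3982 and 11072 bases in the union of exons, but 2862 and 9990 in their longest transcripts. The orders of TRPS1 and FOXA1, and of EHF and GRHL2 in control estradiol, depend on which length is used. So do the overlaps of ELF3 with TBX3 in HOXB13 estradiol and of EHF with GRHL2 in HOXB13 vehicle, which are absent with the longest transcripts. ELF3 has 7191 bases in the union of exons and 4994 in its longest transcript, and TBX3 has 5950 and 4723.

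Among themselves, GATA3 and TBX3 had the most similar profiles, with a root mean square difference of 0.0731 between their mean-centred log2 CPM over 12 libraries, followed by FOXA1 with GATA3 (0.0989) and FOXA1 with EHF (0.109). ELF3 and GRHL2 were the least alike (0.882). Of 11631 other genes, those most like ELF3 were LYPD3 (0.151) and BTG1 (0.153), and those most like SPDEF were CORO1B (0.0761) and SPINT1 (0.0861). FOXA1 was closest to PRRC1 and SCARB2 (0.0561 and 0.058), GATA3 to TMEM63B and ULK1 (0.0519 and 0.0613) and TBX3 to SUFU and MAN2B2 (0.0619 and 0.0651). EHF was closest to SYNJ2 and NCOA2 (0.0838 and 0.0845), TRPS1 to UBR2 and KIDINS220 (0.0622 and 0.0686) and GRHL2 to TMEM209 and SLC39A10 (0.125 and 0.127). The median over all candidates was 0.294 (GATA3) to 0.593 (ELF3). These distances share the treatment effect and the deviation of the libraries numbered 2. They were not scaled by each gene's own spread, so genes that vary little can lie close for that alone. The SD of log2 CPM over the 12 libraries was 0.21 for GATA3, 0.228 for TBX3 and 0.223 for FOXA1. It was 0.529 for GRHL2 and 0.58 for ELF3.

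Paralogs of these factors did not move one way. Of 16 listed, 11 were tested, and averaged over genotypes 3 rose, 4 fell and 4 did not pass in estradiol (median log2 fold change −0.15). By genotype 3 rose and 3 fell in each (3 and 4 with the replicate block), and the block gave 3 and 5 in the average. In control cells 8.65% of all tested genes rose and 6.72% fell, and in HOXB13 cells 7.22% and 6.38%. In the average these shares were 14.6% and 13.5%. With the block they were 17.5% and 16.5% in control cells, 15.5% and 15% in HOXB13 cells, and 22.7% and 22.8% in the average. ELF5, the ETS factor of milk-producing progenitors, fell by 0.70, from 141 ± 14.1 to 85.7 ± 4.30 CPM in control cells (SD, n = 3). GRHL3 fell by 0.70 and GATA6 by 0.47, while GATA5 rose by 0.99, from 4.86 ± 0.456 to 10.0 ± 2.61 CPM in control cells. GATA4, ELF4 and GRHL1 are named after their values were seen, to complete the counts without the block. GATA4 rose from 0.0646 ± 0.0729 to 3.24 ± 0.977 CPM in control cells (SD, n = 3), ELF4 rose by 0.40, and GRHL1 fell by 0.34 in the average. The grainyhead paralogs GRHL1 and GRHL3 had negative estimates in the average, where that of GRHL2 was positive. Without the block the GRHL2 estimate did not pass (edgeR adjusted p = 0.631) and its 95% interval ran from −0.36 to 0.75. No difference between these 3 genes was tested.

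Other transcription factors of luminal or epithelial cells went both ways. Of 18, all tested, 9 rose and 6 fell in the average (median 0.23), and 9 and 7 with the replicate block. In control cells 8 rose and 1 fell (9 and 4 with the replicate block), and in HOXB13 cells 6 rose and 2 fell (8 and 7 with the block). Of all tested genes, 8.65% rose and 6.72% fell in control cells (17.5% and 16.5% with the block). In HOXB13 cells these shares were 7.22% and 6.38% (15.5% and 15%). In the average they were 14.6% and 13.5% (22.7% and 22.8% with the block). CITED1, a receptor coactivator, rose by 2.41, ZNF703, a cofactor amplified in luminal tumours, by 1.34, RUNX1 by 1.24 and MYB by 0.93. ZNF703 went from 177 ± 22.1 to 509.9 ± 23.9 CPM in control cells (SD, n = 3). TFAP2B was the 1 gene of the list called for HOXB13 averaged over treatments, lower by 1.67 (edgeR adjusted p = 0.00607), from 9.12 ± 1.87 to 3.10 ± 1.03 CPM in vehicle. In vehicle alone TFAP2B did not pass (edgeR adjusted p = 0.199), but did with the replicate block (0.00127), where 0.405% of tested genes passed. In that averaged comparison, 0.149% of all tested genes were called. No difference between these lists was tested.

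Genes of epithelial junctions, splicing and surface proteases, many of which GRHL2, ELF3 and EHF are known to regulate, were lower in estradiol or did not pass. Of 20 tested, 0 rose and 11 fell in the average (median −0.27; 15 fell with the replicate block). By genotype 0 rose and 8 fell in each (12 fell in each with the block). Of all tested genes, 14.6% rose and 13.5% fell in the average. In control cells 8.65% rose and 6.72% fell, and in HOXB13 cells 7.22% and 6.38%. With the block, 16.5% fell in control cells, 15% in HOXB13 cells and 22.8% in the average. CLDN4, a tight junction claudin, fell from 737 ± 51.8 to 446 ± 11.5 CPM in control cells and from 682 ± 57.9 to 428 ± 44.3 CPM in HOXB13 cells (SD, n = 3). SPINT1, an inhibitor of the protease matriptase, fell by 0.64 in the average, PRSS8, a membrane protease, by 0.63 and CLDN3 by 0.59. EPCAM had 0.04 in control cells (edgeR adjusted p = 0.843). For HOXB13, 0 of these 20 passed in the average, and with the replicate block 2 passed as lower, CLDN3 (−0.18 without the block, adjusted p = 0.949 and 0.0493 with it) and MARVELD3 (−0.25, 0.702 and 0.0465), the latter named after its values were seen. Of all tested genes, 0.149% passed in this average, and 1.54% passed as lower with the block.

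Of 18 luminal genes of other kinds, 17 were tested, and in the average 6 rose and 4 fell (median 0.05). In control cells 4 rose and 2 fell (7 and 5 with the replicate block), and in HOXB13 cells 4 rose and 3 fell (5 and 4). In the average the block gave 6 and 6. Of all tested genes, 8.65% rose and 6.72% fell in control cells (17.5% and 16.5% with the block). In HOXB13 cells these shares were 7.22% and 6.38% (15.5% and 15%). In the average they were 14.6% and 13.5% (22.7% and 22.8%). STC2, a secreted glycoprotein, rose by 2.16 and GREB1, an estrogen receptor cofactor, by 1.52, while CEACAM6, an adhesion molecule, fell by 1.65. The list mixes known estrogen-induced genes with lineage markers. Of 13 transcription factors of basal or mesenchymal cells, 4 were tested. In the average SOX9, a progenitor factor, fell by 1.05 and TWIST1 by 0.96, and FOXC1 rose by 0.82. The remaining gene, SNAI1, also rose and is named after its values were seen, at 0.0675 ± 0.0764 CPM in control vehicle and 0.843 ± 0.174 CPM in control estradiol (SD, n = 3). TP63, SNAI2, ZEB1 and ZEB2 had at most 12, 4, 4 and 7 counts in any library.

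Reads of genes that overlap these loci on the opposite strand could not be told apart, since the strand setting of the counting is not given in the sources used here. In GENCODE 29, TTC6 shares 16 exonic bases with FOXA1 and was at 6.15 to 11.6 CPM. GATA3-AS1, a non-coding gene transcribed away from GATA3 with 0 shared exonic bases, was at 62.0 to 93.7 CPM. ELF3-AS1, on the opposite strand, shares 664 exonic bases with ELF3 and is not analysed here, and the part of its reads in the ELF3 values was not tested. AL691482.3, on the same strand as ELF3, also shares 664 exonic bases with it, and a strand setting would not separate its reads. AP001207.3, on the opposite strand, shares 50 exonic bases with GRHL2. The part of AL691482.3 and AP001207.3 in these values was not tested either.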

How the data were processed

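RNA of 12 libraries (4 groups of 3) was sequenced, and the authors deposited 1 table of raw counts per gene symbol; the submitters' processing notes name FastQC, STAR, Picard, HTSeq and the build GRCh37 (hg19), without versions, and the strand setting is not given in the sources used here. Groups and library numbers came from the labels, and no column was left unmapped. Of 55882 rows, 30284 had no counts. Total counts of 17679824 to 21385996 per library limit the precision of low genes. Genes were filtered with edgeR's filterByExpr (at least 10 counts, 15 in total), scaled by TMM, and tested by the robust quasi-likelihood test of edgeR 4.0.16 in R 4.3.3, in 1 fit of group means over all 12 libraries, with Benjamini-Hochberg adjustment over the 14799 genes tested and a threshold of 0.05. The 7 comparisons were estradiol against vehicle in each genotype and averaged, HOXB13 against control in each treatment and averaged, and the difference in response. Log2 CPM used a prior count of 2. SE is the log2 fold change divided by the root of F. The test was checked on simulated counts of independent libraries. These held no shared deviation of equally numbered libraries, so the check does not cover that feature of the data.

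Equally numbered libraries deviated together in all 12 pairs of the 4 comparisons of 2 groups (correlations of deviations from group means 0.123 to 0.457), so the value with the replicate number as a block is given beside these results where it changes a call, while the main values come from the fit without it; no label explains these numbers, and the libraries numbered 2 alone could give such correlations. Over all 18 pairs the lowest was 0.0926, so for the averaged comparisons and the difference the pairing rests on less. Alternatives were RLE scaling, no filter, DESeq2 1.42.0, the replicate block, leaving out each library, and leaving out the 4 numbered 2.

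Named genes are the 8, up to 4 per list and comparison with the largest change among those past the threshold at an average log2 CPM of at least 1, and the 2 genes most alike in pattern to each of the 8. The genes and lists were chosen with earlier results of these data known, so their counts are descriptions.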

Additional observations from a re-analysis of the deposited data

How the results depend on the processing

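With the replicate block, 7 rather than 4 of the 8 genes passed for estradiol in control cells, and the numbers in HOXB13 cells (7 rather than 5) and in the average (8 rather than 6) moved less. The block passed 34% of tested genes in control cells and 30.5% in HOXB13 cells. Leaving out libraries gave 1 to 7 genes in control cells, 2 to 7 in HOXB13 cells and 6 to 8 in the average. In the average, 22.8% to 37.4% of tested genes passed in these fits, against 28.1% with all libraries. The count in control cells was 2 without control vehicle library 1 or 3 or control estradiol library 2, 1 without control estradiol library 3, and 7 without all libraries numbered 2. The shares of tested genes passing in these fits were, in that order, 9.84%, 11.4%, 10.6%, 9.76% and 24%, against 15.4% with all libraries. The count in HOXB13 cells was 2 without HOXB13 vehicle library 1, and 3 without control estradiol library 3, HOXB13 vehicle library 3 or any one HOXB13 estradiol library. There 8.11% of tested genes passed without HOXB13 vehicle library 1 and 8.1% to 11.3% in the fits giving 3, against 13.6% with all libraries. The cause was not tested. RLE scaling changed no call. DESeq2 passed FOXA1 (adjusted p = 0.0336) and GATA3 (0.0105) in control cells, where 19% of tested genes passed. No filter moved TBX3 and TRPS1 as described, with 10.2% of genes passing in control cells and 8.99% in HOXB13 cells. The block on the averaged comparison passed GRHL2 (0.185 on the log2 scale, adjusted p = 0.0106) and TRPS1 (−0.33, 8.1e-05), where 45.5% of tested genes passed. It gave no call for HOXB13 or for the difference in response.

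With the replicate block, EHF for HOXB13 in vehicle went from 0.0013 to −0.0046 on the log2 scale, neither passing. The other signs that turned did so in fits that left out libraries, among estimates that did not pass. GRHL2 ranged from −0.0777 to 0.434 for estradiol in control cells and from −0.0683 to 0.497 in HOXB13 cells, and the ELF3 difference in response from −0.349 to 0.0124. For HOXB13 averaged over treatments the ranges were −0.00615 to 0.0474 for GATA3, −0.0812 to 0.0526 for SPDEF, −0.0337 to 0.242 for GRHL2, −0.0486 to 0.0462 for TBX3 and −0.00606 to 0.189 for TRPS1. HOXB13 and the difference in response gave 0 of 8 in all alternatives run. With 3 libraries a group, an exact permutation test of 1 gene cannot go below p = 0.1.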
